A study of Homo sapiens with 4 samples.

Results

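Counts of 101 small noncoding RNA genes were compared between T4A and WT cells. Candidates were chosen by symbol (SNORA, SNORD, SCARNA and RNU genes, with RN7SK, RN7SL1, RN7SL2, RMRP and RPPH1), which gave 2539 of the 62700 genes in the count tables. The 101 members were then selected on having 20 or more counts summed over the 4 libraries. This left 45 SNORA, 30 SNORD, 5 SCARNA and 4 snRNA genes, 16 snRNA pseudogenes (RNU symbols ending in P) and RMRP. A further 440 candidates had 1 to 19 counts and 1998 had none. Because summed counts chose the members, their presence in the tables is a description and not a result.

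The libraries were poly(A)-selected RNA of HEK293T cells, a human embryonic kidney line, transiently transfected with RPB1, the largest subunit of Pol II. In T4A cells, threonine at position 4 of the CTD heptads was replaced by alanine, and WT cells received RPB1 with the wild-type CTD. Both proteins carried EYFP and resisted α-amanitin, which was added to both groups 1 day after transfection at 2.5 µg/ml and kept for 48 hours to remove endogenous RPB1, so WT cells were also transfected and toxin-treated. Each group had 2 libraries, with 23465029 and 19257217 counts for T4A and 33063535 and 24695291 counts for WT. The study describes its replicates as biological, while the labels name no separate cultures. The p-values here rest on the spread between the 2 libraries of a group, drawn towards the trend over all genes (17 prior degrees of freedom in edgeR). They are thus not a measure of a gene's own replicate spread alone. POLR2A, the RPB1 gene, stood at 5378 and 5477 CPM (counts per 1000000, with library sizes scaled by TMM) in T4A cells, against 3772 and 2764 CPM in WT cells. Its counts cannot separate transfected from endogenous RPB1. Of markers known from HEK293T cells, the mesenchymal VIM lay between 233 and 276 CPM in the 4 libraries, the neuronal NEFM between 9.41 and 14.7 CPM and the renal PAX2 between 2.42 and 4.44 CPM, whereas LHX1 was at or near 0 in every library. The epithelial keratin KRT8 reached 24.8 CPM in T4A cells, against 16.4 CPM at most in WT cells, with both T4A libraries above both WT libraries, and KRT18 had 6.30 and 5.74 CPM in T4A cells, against 4.62 and 4.02 CPM in WT cells. The collagen gene COL1A1 lay between 27.5 and 33.1 CPM. The leukocyte marker PTPRC was at most 0.0881 CPM.

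Box C/D snoRNAs (SNORD) guide ribose methylation and box H/ACA snoRNAs (SNORA) guide pseudouridylation, mainly of rRNA. The scaRNAs do the same for spliceosomal snRNAs in Cajal bodies. In human cells most of these RNAs are cut out of introns of host genes and trimmed by exonucleases, while most snRNAs come from their own Pol II promoters and U6, RMRP and 7SK come from Pol III promoters. The mature RNAs mostly lack a poly(A) tail. A count in a poly(A) library can therefore come from the mature RNA, from a tailed precursor or from host RNA that spans the gene, and these cannot be told apart here. Fewer cells holding an RNA and less of it per cell cannot be told apart either.

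The members were a small share of each library, 0.0118% and 0.0101% of the total in T4A, against 0.0103% and 0.00931% in WT. Their summed level was 122 and 103 CPM in T4A cells, against 102 and 89.7 CPM in WT cells. In CPM the groups did not overlap, whereas as shares of library totals T4A 2 lay below WT 1, so the separation depended on the scaling. The ratio of the group means was 1.18 (113 ± 13.5 CPM in T4A and 95.7 ± 8.52 CPM in WT, SD, n = 2 each), and no test was run on sums. The 4 genes with the most counts, RNU6-8, SNORD17, SNORA40 and RMRP, made up 28.4% of all member counts. The median summed count of a member was 42, and 26 reached 100.

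Of the 101 members, 59 passed the count filter and were tested, with summed counts between 30 and 888. None was called in either direction by edgeR's quasi-likelihood test with Benjamini-Hochberg adjustment over all 18139 genes, and the smallest adjusted p was 0.0653. Across all genes tested, 10.7% were called higher in T4A and 13.0% lower. Among the 10219 tested genes whose summed counts fell in the range of the tested members, a background chosen after the data were seen, 2.42% were called higher and 4.25% lower. At an unadjusted p under 0.05, 4 members were higher and 1 was lower in T4A, beside 15.4% and 18.2% of all genes. DESeq2 also called no member, with 3 higher and 0 lower at an unadjusted p under 0.05, though it gave only 15 of the 59 an adjusted p. Limma-voom called 1 higher, RNU2-13P (adjusted p = 0.0255). None was called lower by DESeq2 or limma-voom. The fitted changes depended on single libraries. With 1 library left out, the log2 fold change ran between 0.095 and 0.85 for RNU6-8, 0.37 and 1.00 for SCARNA12 and 0.47 and 2.26 for RNU2-13P. It turned sign for SNORD95 (between -0.58 and 0.98) and RMRP (between -0.39 and 1.24).

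The fitted changes of the tested members leaned to one side without passing the test. The log2 fold change (T4A over WT) was above 0 for 44 of the 59 tested members and below 0 for 15, with a median of 0.30, beside a median of -0.01 over all genes tested. Both T4A libraries lay above both WT libraries for 21 members and below them for 4, whereas this held for 28.5% and 30.5% of all genes. The filter asked for enough counts in 2 libraries, so some members passed through 1 group only. SNORD35B and SNORA32 did so through T4A, and RNU2-22P through WT. For such members the filter favoured the side seen, so these counts are a description and not support for a rise. The 42 members not tested did not lean this way, with both T4A libraries above both WT libraries for 7 and below them for 9. When all 101 members were fitted, the median log2 fold change was 0.22, beside -0.01 over all genes in that fit. Members in 1 host share their source, so these counts are not of independent genes. The 95% intervals were wide, with a median width of 2.40 on the log2 scale, and for 50 of the 59 members they reached 1 or -1 on the log2 scale.

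**Figure D1:**
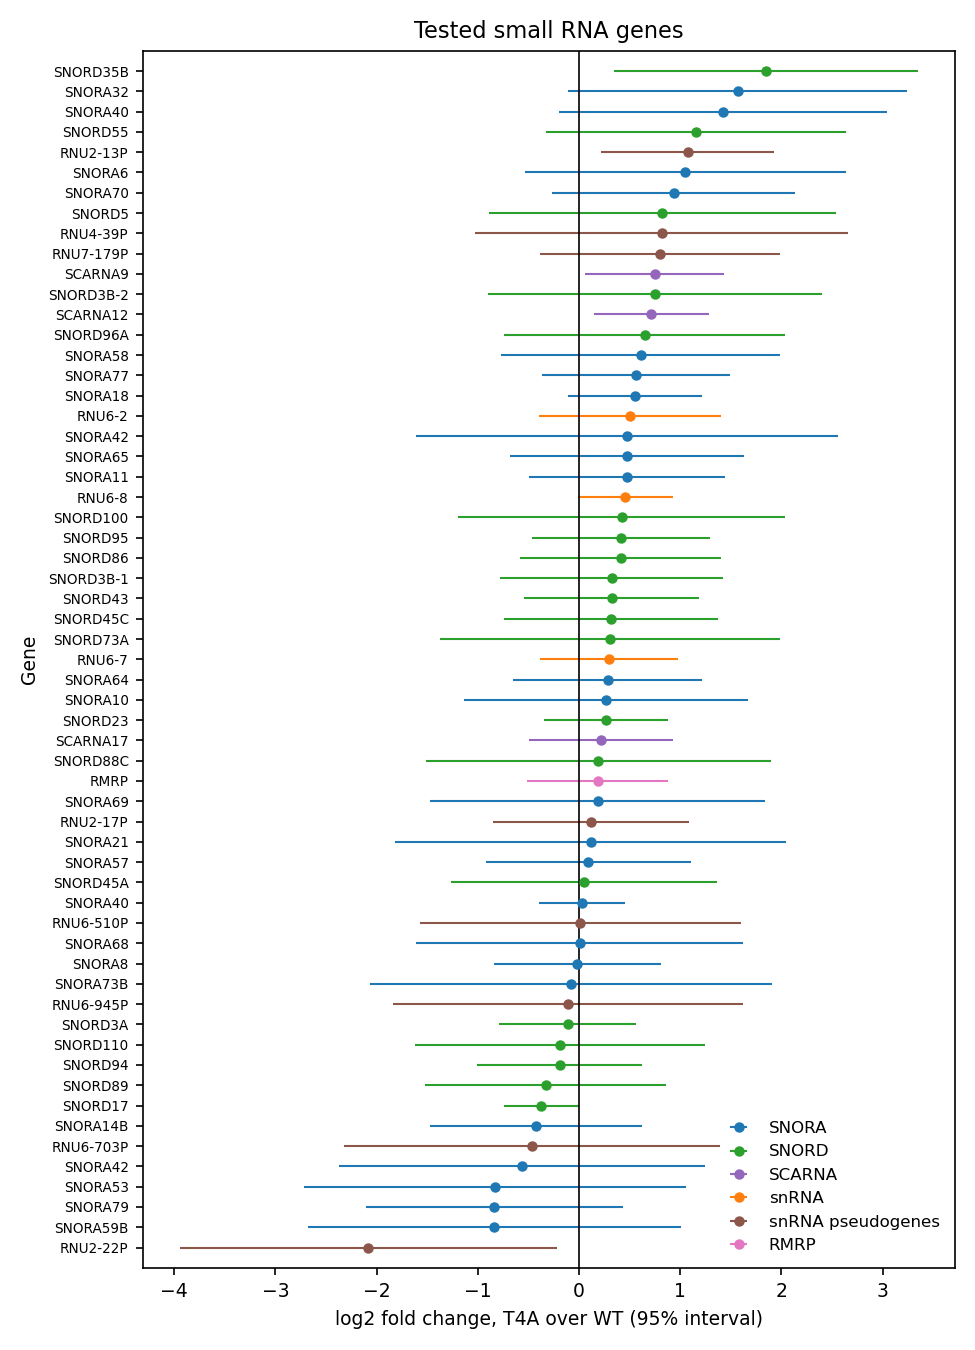
Log2 fold change (T4A over WT, x axis) of each of the 59 tested small RNA genes (y axis), with its 95% interval from the quasi-likelihood fit and colours for the classes. Points lie right of 0 for 44 genes, and the intervals of 5 genes leave out 0 before adjustment.

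By class, the scaRNAs differed most between groups relative to the spread of their sums. In T4A cells that spread was small because opposite differences in SCARNA12 and SCARNA9 offset each other. The 5 SCARNA members summed to 11.9 and 12.3 CPM in T4A cells, against 8.02 and 7.93 CPM in WT cells, a ratio of 1.52. The SNORA sum was 37.2 and 30.7 CPM in T4A cells, against 31.7 and 29.9 CPM in WT cells, and the SNORD sum was 37.1 and 31.3 CPM in T4A cells, against 32.5 and 31.9 CPM in WT cells. Both snoRNA classes therefore overlapped between groups. The snRNA sum was 19.8 and 12.2 CPM in T4A cells, against 13.0 and 10.8 CPM in WT cells, and it overlapped as well. The snRNA pseudogenes summed to 10.1 and 11.2 CPM in T4A cells, against 9.03 and 6.75 CPM in WT cells, with no overlap. Of the pseudogene counts, 28.9% came from RNU2-13P alone.

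**Figure D2:**
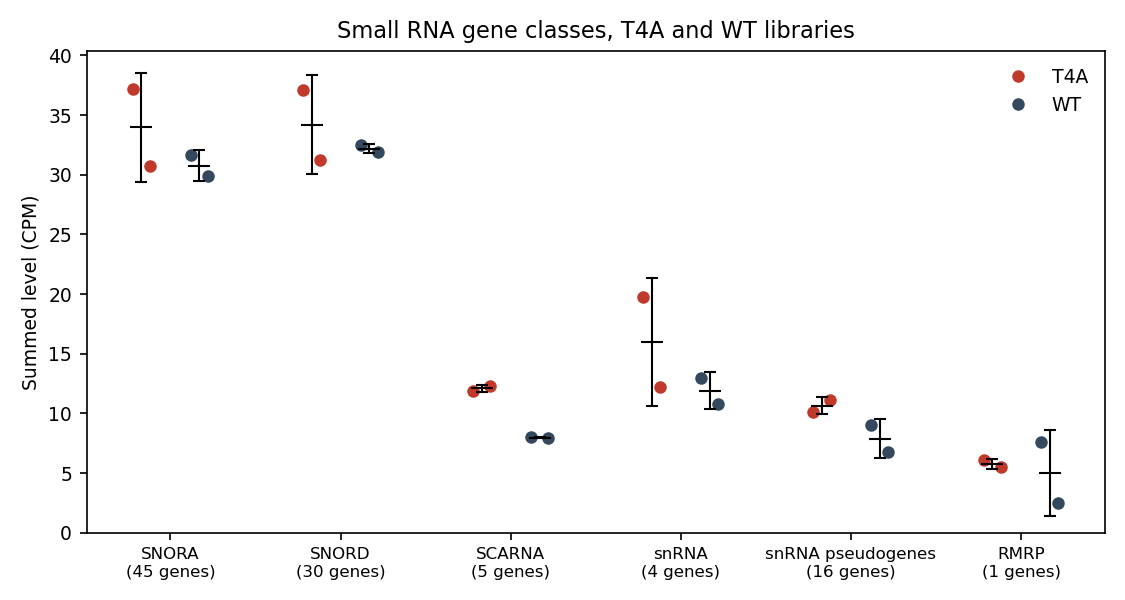
Summed level of each class in CPM (y axis), with a point per library and the mean ± SD of 2 libraries in black. The SCARNA and snRNA pseudogene sums do not overlap between T4A and WT, while the SNORA, SNORD, snRNA and RMRP values do.

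The scaRNA sum rested on 2 genes. SCARNA12 (chromosome 12, 6967337 to 6967606, GRCh38), which lies in PHB2, the gene of a mitochondrial prohibitin, had 4.01 and 6.22 CPM in T4A cells, against 3.16 and 3.05 CPM in WT cells. Its log2 fold change was 0.71 ± 0.27 (SE), with an edgeR adjusted p of 0.0659, and without T4A 2 it was 0.37. SCARNA9 (chromosome 11, 93721514 to 93721866), in the centriole gene CEP295, had 5.20 and 2.66 CPM in T4A cells, against 2.30 and 2.42 CPM in WT cells. It changed by 0.75 ± 0.33, with an edgeR adjusted p of 0.111, and without T4A 1 the difference was 0.17. For both genes each T4A library was above each WT library, but the T4A libraries were far apart and in opposite directions. The close T4A values of the scaRNA sum therefore do not show that its genes were close between replicates. SCARNA17 was closer between groups, with 2.34 and 2.66 CPM in T4A cells, against 2.06 and 2.23 CPM in WT cells. SCARNA1 and SCARNA18 had summed counts of 24 and 21 and were not tested. The sequence of SCARNA12, the scaRNA with the most counts, is shown 5′ to 3′ as annotated by GENCODE (minus strand).
SCARNA12: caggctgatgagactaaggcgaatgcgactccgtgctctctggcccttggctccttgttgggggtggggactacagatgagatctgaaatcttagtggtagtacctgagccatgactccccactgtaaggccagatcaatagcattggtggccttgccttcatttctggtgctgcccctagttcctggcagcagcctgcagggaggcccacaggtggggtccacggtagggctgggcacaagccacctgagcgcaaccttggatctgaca

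Among box C/D snoRNAs, SNORD17 had the most counts and the smallest p of the class below 0. It had 156 and 150 counts in T4A cells, against 341 and 230 in WT cells, or 6.87 and 7.97 CPM against 10.2 and 8.98 CPM. Both T4A libraries were below both WT libraries, and the log2 fold change was -0.37 ± 0.18 (SE, edgeR adjusted p = 0.150). SNORD17 lies at chromosome 20, 17962710 to 17962946, within both SNX5, the gene of a sorting nexin, and OVOL2. SNX5 had 98.5 and 96.9 CPM in T4A cells, against 98.3 and 96.0 CPM in WT cells. OVOL2, the longer gene and so the host used in the comparison below, had only 10 and 4 counts in T4A cells, against 15 and 16 in WT cells. Its log2 fold change was -0.68 ± 0.80. SNORD35B stood at the other end, with 31 and 13 counts in T4A cells, against 11 and 6 in WT cells, and a log2 fold change of 1.85 ± 0.72 (edgeR adjusted p = 0.0702). SNORD95, in the ribosomal scaffold gene RACK1, showed how far replicates could part, with 96 and 27 counts in T4A cells, against 55 and 69 in WT cells. SNORD23 in NOP53 had 3.57 and 3.35 CPM in T4A cells, against 2.53 and 3.24 CPM in WT cells. SNORD3A, a U3 gene whose RNA acts in pre-rRNA cleavage, had 3.79 and 2.02 CPM in T4A cells, against 2.98 and 3.36 CPM in WT cells, and SNORD94 had 50 and 27 counts in T4A cells, against 82 and 44 in WT cells. None of these passed the test.

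SNORD17 and SNORD95 are shown 5′ to 3′ so that their boxes can be compared. Capitals mark TGATGA (the core of box C) within the first 25 bases, and CTGA (box D) within the last 25 bases, searched on the RNA strand only. Among 326 SNORD genes with 1 transcript of at most 300 bases, 64.4% held TGATGA and 86.2% held CTGA in these windows, and among the 27 such members 70.4% and 96.3% did.
SNORD17: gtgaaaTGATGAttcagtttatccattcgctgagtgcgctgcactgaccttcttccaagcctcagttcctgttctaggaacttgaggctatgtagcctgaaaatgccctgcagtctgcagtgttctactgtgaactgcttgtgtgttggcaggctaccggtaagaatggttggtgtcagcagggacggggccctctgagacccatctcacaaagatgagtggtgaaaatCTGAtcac
SNORD95: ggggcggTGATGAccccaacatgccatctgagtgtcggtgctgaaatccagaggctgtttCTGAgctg

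Box H/ACA members included a cluster in TAF1D, a gene of a Pol I transcription factor subunit. SNORA40, SNORA18, SNORA8, SNORA32 and SNORD5 all lie in it, and together they held 12.9 and 14.2 CPM in T4A cells, against 12.3 and 10.9 CPM in WT cells. TAF1D itself had 14.6 and 12.7 CPM in T4A cells, against 13.3 and 14.5 CPM in WT cells, so the summed cluster was near its host in level (neither is given per length). SNORA40 in TAF1D (ENSG00000210825.1) had 6.70 and 6.11 CPM in T4A cells, against 5.96 and 6.64 CPM in WT cells, which overlap. SNORA18 had 2.91 and 3.83 CPM in T4A cells, against 2.42 and 2.15 CPM in WT cells (log2 fold change 0.55 ± 0.31, edgeR adjusted p = 0.234). SNORA8 had 40 and 59 counts in T4A cells, against 112 and 39 in WT cells, so its WT libraries enclosed both T4A libraries. SNORA32 had 22 and 11 counts in T4A cells, against 13 and 3 in WT cells (log2 fold change 1.57 ± 0.80, edgeR adjusted p = 0.180). Outside TAF1D, SNORA77 in RANBP1 had 3.04 and 1.22 CPM in T4A cells, against 1.61 and 1.29 CPM in WT cells. SNORA64 in RPS2 had 2.29 and 1.17 CPM in T4A cells, against 1.64 and 1.21 CPM in WT cells. At the low end SNORA79 in CCNB1IP1 had 12 and 11 counts in T4A cells, against 34 and 25 in WT cells (-0.84 ± 0.61, edgeR adjusted p = 0.376). SNORA59B had 12 and 1 counts in T4A cells, against 23 and 10 in WT cells.

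A second gene named SNORA40 (ENSG00000253047.1, chromosome 1), within no other gene, had 17 and 13 counts in T4A cells, against 11 and 5 in WT cells (1.42 ± 0.77, edgeR adjusted p = 0.211). The sources used here do not state how fragments that fit several genes were counted. Of the 101 members, 39 share their symbol with another gene in the tables.

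The snRNA members were mostly U6 genes. U6 is the catalytic core snRNA of the spliceosome. RNU6-8 (chromosome 14, 32203163 to 32203269) led all members with 283 and 151 counts in T4A cells, against 307 and 147 in WT cells. This was 12.5 and 8.03 CPM in T4A cells, against 9.15 and 5.74 CPM in WT cells, and the groups overlapped (log2 fold change 0.46 ± 0.22, edgeR adjusted p = 0.161). Without T4A 1 the log2 fold change was 0.095 and without WT 1 it was 0.85. RNU6-7, which lies nearby at 32202045 to 32202151, had 105 and 46 counts in T4A cells, against 83 and 86 in WT cells. RNU6-2 had 53 and 28 counts in T4A cells, against 40 and 39 in WT cells. RNU6-1 and RNU6-9 had only 18 and 3 counts in all. The 107 bases of RNU6-8 and RNU6-7 are identical, and those of RNU6-2, RNU6-1 and RNU6-9 are identical to each other. Loci with 1 sequence thus had very unequal counts, and a fragment inside the 107 bases fits several loci equally. RNU5A-1, a U5 gene, had 8 and 4 counts in T4A cells, against 6 and 5 in WT cells, and was not tested.

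The pseudogenes gave both extremes of the snRNA symbols. RNU2-13P, a U2-like sequence in GREB1 (chromosome 2, 11561194 to 11561306), had 85 and 70 counts in T4A cells, against 90 and 20 in WT cells. Scaled for library size, RNU2-13P had 3.75 and 3.72 CPM in T4A cells, against 2.68 and 0.781 CPM in WT cells. Its log2 fold change was 1.07 ± 0.41 (edgeR adjusted p = 0.0653), with 2.26 without WT 1 and 0.47 without WT 2, and the WT libraries were further apart than the T4A libraries. RNU2-22P (chromosome 2, 231501990 to 231502201) had 2 and 4 counts in T4A cells, against 18 and 19 in WT cells, a change of -2.08 ± 0.89 (edgeR adjusted p = 0.102). RNU7-179P had 37 and 16 counts in T4A cells, against 28 and 15 in WT cells, or 1.63 and 0.851 CPM against 0.835 and 0.586 CPM. Its log2 fold change was 0.80 ± 0.57 (edgeR adjusted p = 0.359). RNU2-17P had 24 and 36 counts in T4A cells, against 44 and 36 in WT cells, or 1.06 and 1.91 CPM against 1.31 and 1.41 CPM, which overlap. RNU6-510P and RNU6-945P, with 48 and 43 counts in all, changed by 0.01 ± 0.76 and -0.11 ± 0.83.

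Of the Pol III RNAs named in the rule, only RMRP, the RNA of RNase MRP, was a member. It had 138 and 103 counts in T4A cells, against 254 and 63 in WT cells, or 6.08 and 5.48 CPM against 7.57 and 2.46 CPM. The WT libraries enclosed both T4A libraries (log2 fold change 0.18 ± 0.33, edgeR adjusted p = 0.765), and without WT 2 the value was -0.39, whereas without WT 1 it was 1.24. Both identifiers of RN7SK held no counts in any library, and RN7SL1, RN7SL2 and RPPH1 were not analysed here because their symbols matched no identifier. Both RN7SK identifiers overlap an exon of another gene's representative (basic) transcript. Their lack of counts therefore does not show that 7SK RNA was absent, and the part of the overlap in it was not tested. The RMRP sequence is shown as the only member of its class.
RMRP: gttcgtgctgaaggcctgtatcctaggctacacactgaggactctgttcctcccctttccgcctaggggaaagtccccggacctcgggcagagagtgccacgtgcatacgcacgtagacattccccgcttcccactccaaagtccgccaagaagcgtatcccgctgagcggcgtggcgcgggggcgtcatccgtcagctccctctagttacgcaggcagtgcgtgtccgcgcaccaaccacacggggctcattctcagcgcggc

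**Figure D3:**
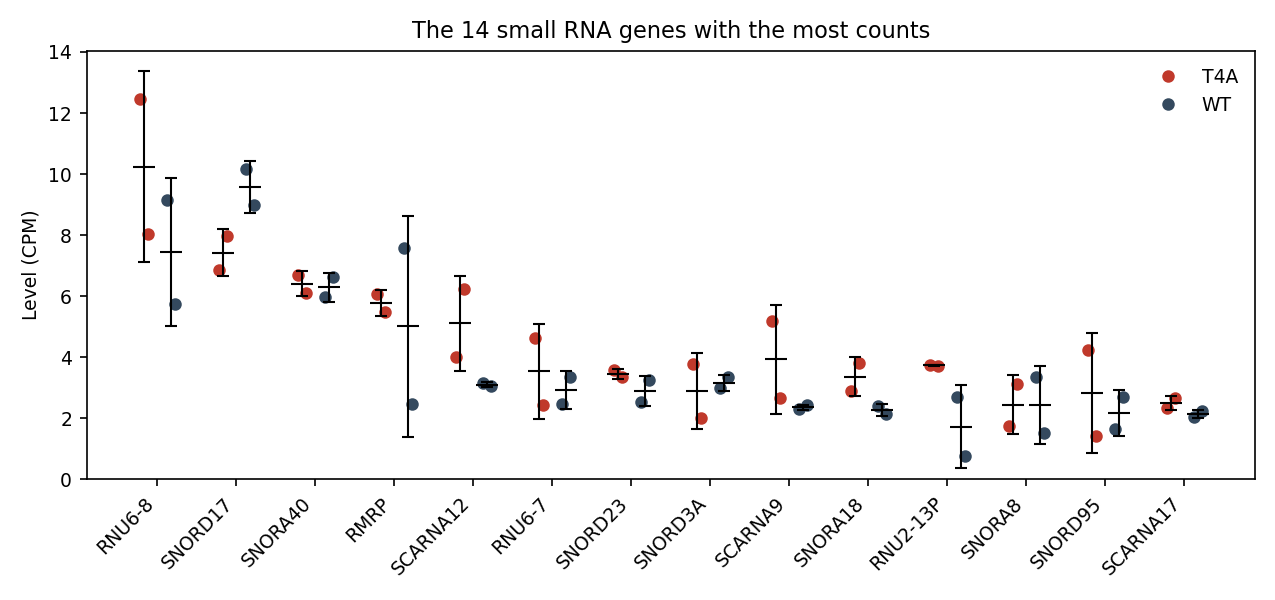
Level in CPM (y axis) of the 14 small RNA genes with the most counts, with a point per library and the mean ± SD of 2 libraries in black. SNORD17 is lower in both T4A libraries, SCARNA12 and SCARNA9 are higher in both, and RMRP has WT libraries at 7.57 and 2.46 CPM on either side of T4A.

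Host genes were compared with the members inside them. Of the 101 members, 78 lay within another gene on the same strand, 4 only within a gene on the opposite strand and 19 within none. The 78 fell in 66 hosts, taken as the longest gene where several held a member, and 8 hosts held more than 1. Of the 62 hosts tested, 28 were called higher in T4A and 8 lower, with a median log2 fold change of 0.22. Across all genes tested, 10.7% were called higher and 13.0% lower, and the share of hosts called lower was near the latter. The share called varied with counts, at 2.42% higher and 4.25% lower among genes in the count range of the tested members. No background matched to the hosts' counts was taken, so the hosts' shares cannot be read as high or low for their counts. All 18 ribosomal protein hosts were called higher, by between 0.27 (RPL5) and 0.59 (RPLP2). The lower hosts were ATP2B4, ACADM, KHDC4, TSR1, TOMM20, TMEM167A, GREB1 and a MATR3 identifier (ENSG00000280987.4). That identifier had only 24 and 31 counts in T4A cells, against 103 and 88 in WT cells. Its member SNORA74, not tested, also lies in SNHG4, which had more counts and was called higher by 0.24 on the log2 scale. The hosts had far more counts than their members, whose summed count was 0.515% of the host's at the median.

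For the 42 tested members with a tested host, the median log2 fold change was 0.30 for members and 0.22 for their hosts, counted once per member. The member was above its host in 24 cases and below it in 18, with a median difference of 0.04. The host's value lay within the member's 95% interval in 40 of 42 cases. The exceptions were RNU2-13P, whose host GREB1 was called lower by 0.63, and SCARNA9, whose host CEP295 changed by -0.33 (edgeR adjusted p = 0.0948). With the host taken as the gene with the most counts, a rule chosen after the data were seen, this held in 39 of 42 cases, and SNORD17 with SNX5 (0.0071) was then outside as well. Given the width of these intervals, this does not show that members and hosts changed alike. RPS12 was called higher by 0.57, while its 3 members (SNORD100, SNORD101 and SNORA33) summed to 1.06 and 0.691 CPM in T4A cells, against 1.22 and 0.781 CPM in WT cells. These sums overlapped and rested on 98 counts in all. Only SNORD100 was tested, with a log2 fold change of 0.42 ± 0.77 (SE).

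**Figure D4:**
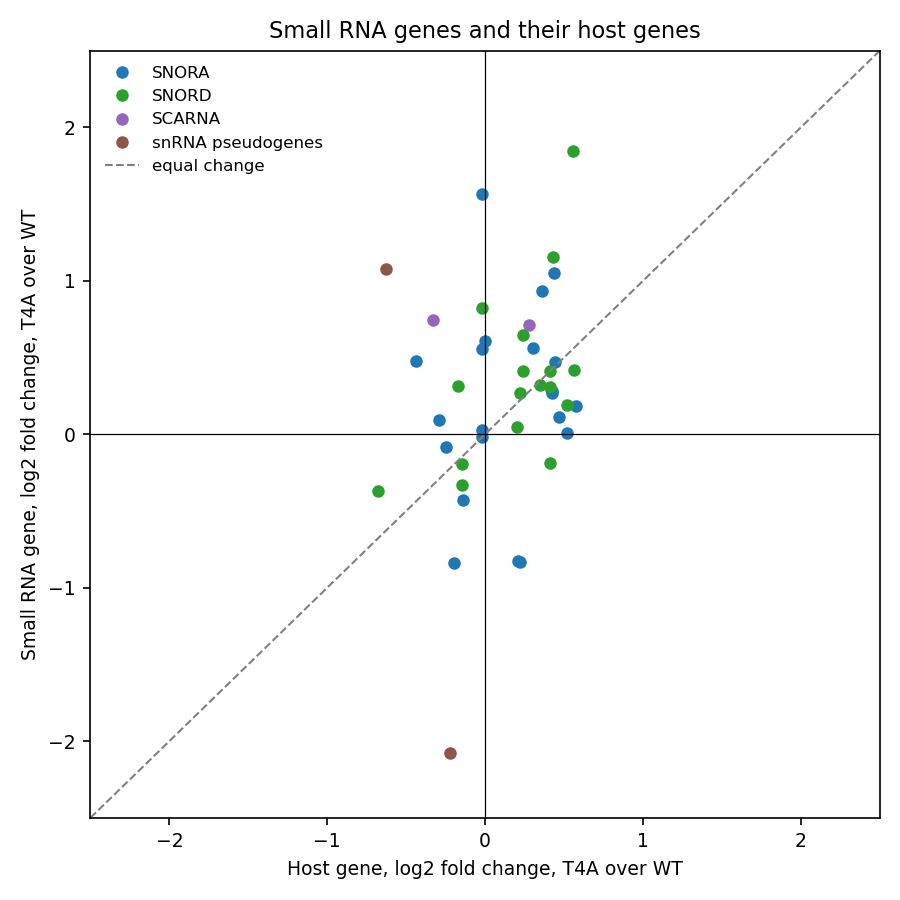
Log2 fold change (T4A over WT) of 42 tested small RNA genes (y axis) against that of their host genes (x axis), with a dashed line where both are equal. Members scatter more widely (SD 0.69) than hosts (SD 0.34), and 24 points lie above the line.

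Which snoRNA genes reached 20 counts went with how the annotation overlaps them, a pattern seen after the data were examined and given without a test. Basic transcripts are GENCODE's representative set for a gene, and retained-intron transcripts are forms that keep an intron. Of 34 SNORA genes overlapping a retained-intron exon and no basic exon of another gene, 18 were members, against 24 of 327 that overlapped no exon of another gene. Any count at all was found for 31 and 90 of these genes. For SNORD genes these were 9 of 40 and 11 of 215. None of the 54 SNORA and SNORD genes overlapping a basic exon was a member, and they had 2 counts in all. The 28 members of all classes over retained-intron exons summed to 36.3 and 35.6 CPM in T4A cells, against 28.4 and 27.8 CPM in WT cells. The 59 members over no exon summed to 69.2 and 55.6 CPM in T4A cells, against 61.2 and 48.9 CPM in WT cells, which overlap. Counting assigns fragments by annotated exons, and the part of this in the members' values was not tested.

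**Figure D5:**
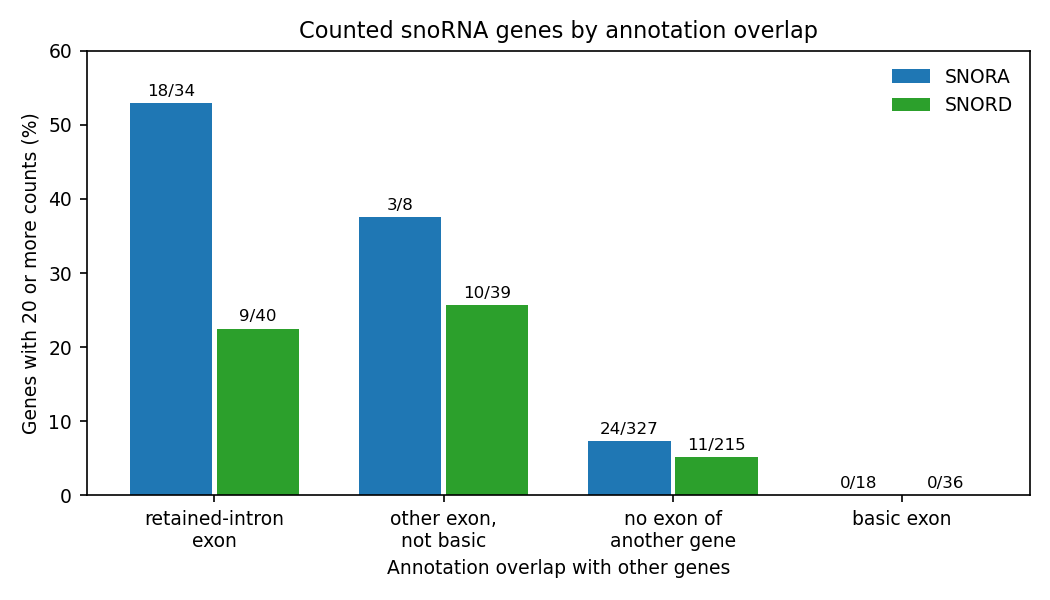
Share of SNORA and SNORD genes with 20 or more counts (y axis, %), by the exons of other genes that they overlap (x axis), with members over all genes above each bar. The share is 52.9% for SNORA over retained-intron exons and 0% for both classes over basic exons.

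Other transcripts without a usual poly(A) tail were measured beside the members. Replication-dependent histone genes summed to 291 and 301 CPM in T4A cells, against 252 and 249 CPM in WT cells. Cytosolic rRNA genes summed to 99.8 and 104 CPM in T4A cells, against 78.1 and 62.9 CPM in WT cells, and Y and vault RNA genes to 11.1 and 11.1 CPM in T4A cells, against 8.08 and 7.14 CPM in WT cells. These 3 groups were higher in both T4A libraries in CPM and as shares of library totals, whereas the summed members were so in CPM only. The mitochondrial rRNAs, which carry short tails, summed to 60118 and 58858 CPM in T4A cells, against 58213 and 54766 CPM in WT cells, and were likewise higher in both T4A libraries in CPM. As shares of library totals they were 5.81% and 5.75% in T4A, against 5.91% and 5.68% in WT, which overlap. The part of carried-over untailed RNA in the members' levels was not tested.

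The proteins that make and hold these RNAs were examined as 9 lists, of whose 97 genes 92 were tested. In all, 18 were called higher and 14 lower in T4A, or 19.6% and 15.2%, beside 10.7% and 13.0% of all genes. The lower share was near that of all genes, a background not matched to the counts of the list genes. Of 10 box C/D snoRNP genes, 6 were higher (FBL, the methyltransferase, NOP56, SNU13, PIH1D1, RUVBL1 and RUVBL2) and RPAP3 was lower. FBL had 153 ± 6.42 CPM in T4A and 129 ± 2.29 CPM in WT cells (SD, n = 2 each). Of 8 H/ACA genes, NHP2 and NOP10 were higher and the assembly factor NAF1 was lower, while DKC1, the pseudouridine synthase, changed by 0.04 ± 0.08. Of 10 snRNA promoter factors, none was higher and ICE1, ICE2 and SNAPC3 were lower. Of 16 export and Sm assembly genes, CLNS1A was higher and GEMIN5 and NCBP1 were lower. Of 21 trimming and decay genes, LSM3, LSM4, LSM5, LSM7 and ZCCHC8 were higher and DIS3, LSM8 and USB1 were lower. ZCCHC8, a subunit of the nuclear exosome targeting complex, had the largest rise of these, 0.73 ± 0.09, and DIS3, an exosome nuclease, fell by 0.44 on the log2 scale. Of 9 RNase MRP and P genes, POP5, POP7 and RPP25 were higher and none was lower. Of 6 genes each in the other 3 lists, CCNT1 of the 7SK list was lower, SRP14 was higher and SRP72 lower among signal recognition particle genes, and AQR and DHX15 were lower among splicing and debranching genes. The medians ran between -0.17 for the 7SK list and 0.27 for the RNase MRP and P list, beside -0.01 over all genes.

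At the selection threshold, members with 20 counts were SNORA52, SNORD32A, RNU6-520P and SNORA74B, and genes with 19 that were left out were RNU1-36P, SNORA80B, RNU6-584P, SCARNA21 and RNU6-218P. RNU6-218P, just outside, had 16 and 0 counts in T4A cells, against 1 and 2 in WT cells. SNORD50, just inside, had 0 and 1 counts in T4A cells, against 21 and 0 in WT cells. Others near the threshold were spread over the libraries, such as SNORA74B with 4 and 4 counts in T4A cells, against 4 and 8 in WT cells.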

How the data were processed

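Poly(A) RNA-seq libraries of T4A and WT cells (2 each) were analysed. The authors trimmed reads with Trimmomatic 0.38, aligned them without strand to GRCh38 with HISAT2 2.2.1 and assigned fragments to genes with featureCounts 2.0.1, per the labels and the study's methods. The deposited values are raw counts per gene, not normalized, with 62700 identifiers per library and totals of 23465029 and 19257217 (T4A) and 33063535 and 24695291 (WT). Without strand, a gene and its antisense partner cannot be told apart.

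Symbols (60877 identifiers matched), hosts, overlaps and sequences came from GENCODE release 44 lifted to GRCh37, and coordinates from RefSeq on GRCh38. Members and lists were chosen with earlier results of these data known. Genes kept by filterByExpr were fitted in edgeR 4.0.16 (R 4.3.3) with TMM, glmQLFit and glmQLFTest, and called at a Benjamini-Hochberg adjusted p under 0.05. The fit was tested on simulated data. Standard errors are the log2 fold change over the square root of F, and 95% intervals use the fit's degrees of freedom. With 2 libraries a group, the smallest exact permutation p is 0.333. Replicates differed beyond sampling noise (chi-square per degree of freedom 4.56 for T4A and 5.66 for WT).

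Named genes were the Pol III RNAs, the 5 members with the most counts in each class, called members, the 3 largest changes in each direction, genes near the threshold and hosts of named members. Others are named where a count turned on them, and some genes and sequences that the rule takes are not reported here. Alternatives were other scalings and filters, DESeq2 1.42.0, limma-voom 3.58.1, a replicate block, each library left out, and, chosen after seeing the data, another host rule.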

Additional observations from a re-analysis of the deposited data

How the results depend on the processing

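Members called higher in T4A numbered 0 in the fit reported, 2 with upper quartile scaling, and 1 each with no filter, limma-voom and the replicate block, and between 0 and 6 with 1 library left out. None was called lower under any setting. The replicate block called RNU2-13P (adjusted p = 0.0128). The labels do not tie replicate numbers across groups, and deviations of same-numbered libraries correlated at -0.00379 over all genes and 0.34 over tested members, so the unpaired fit was kept.

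Log2 ratios of class sums moved by more than the replicate spread for SNORD (0.09, and 0.24 without SNORD17, while members of 100 or more counts gave -0.012, a turn of sign within that spread), SCARNA (0.60, with 0.68 under upper quartile scaling, 0.52 with library totals and 0.52 without SCARNA12) and snRNA pseudogenes (0.43, with 0.17 without RNU2-13P and 0.76 for members of 100 or more counts). With 1 library left out, they ran between -0.0018 and 0.27 for SNORA, -0.042 and 0.21 for SNORD, 0.58 and 0.62 for SCARNA, 0.032 and 0.73 for snRNA, 0.24 and 0.66 for snRNA pseudogenes, and -0.39 and 1.23 for RMRP.

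Hosts called lower numbered 8, with 5 under upper quartile scaling, 13 with library totals and between 5 and 8 with 1 library left out. List genes called lower numbered 14, and between 5 and 14 with 1 library left out. All 18 ribosomal protein hosts were called higher under every setting run. These host and list alternatives were chosen after seeing the data. Taking the host with the most counts gave 30 higher and 7 lower of 62, and 39 of 42 hosts within the member's interval in place of 40.

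Signs turned, with no call, for SNORA40 in TAF1D (-0.051 with library totals), SNORA8 (0.066 with upper quartile scaling, 0.010 with DESeq2, 0.027 with the replicate block) and RNU6-510P (-0.064 with library totals, -0.013 with no filter). With 1 library left out, values ran between -0.043 and 0.10 for SNORA40, -0.39 and 1.24 for RMRP, -0.25 and 0.67 for RNU6-7, -0.65 and 0.26 for SNORD3A, -0.48 and 0.68 for SNORA8, -0.58 and 0.98 for SNORD95, -0.54 and 0.10 for SNORD94, -0.25 and 1.06 for SNORA77, -0.29 and 0.67 for SNORA64, -0.36 and 0.49 for RNU2-17P, -0.28 and 0.33 for RNU6-510P, and -1.03 and 0.50 for RNU6-945P. Values that moved by over 1.5 times without a turn of sign ran between 0.095 and 0.85 for RNU6-8, 0.37 and 1.00 for SCARNA12, 0.17 and 1.14 for SCARNA9, 0.47 and 2.26 for RNU2-13P, 0.34 and 0.74 for SNORA18, 1.00 and 2.69 for SNORA32, 0.14 and 0.79 for RNU6-2, 0.25 and 1.18 for RNU7-179P, 0.10 and 0.44 for SNORD23, 0.13 and 0.31 for SCARNA17, and -3.24 and -0.042 for SNORA59B. The cause of these changes was not tested. Of the 101 members, 42 fell under the count filter and were not tested.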

Other observations

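The 440 candidate genes with 1 to 19 counts held 2311 counts together. They summed to 23.3 and 25.3 CPM in T4A cells, against 23.4 and 20.4 CPM in WT cells, which overlap. By class these were 84 SNORA, 68 SNORD, 16 SCARNA and 12 snRNA genes and 260 snRNA pseudogenes. The SNORA genes among them had 7.27 and 5.53 CPM in T4A cells, against 5.10 and 4.76 CPM in WT cells, and the SCARNA genes had 0.705 and 2.55 CPM in T4A cells, against 1.25 and 0.820 CPM in WT cells, with the T4A libraries on either side of both WT libraries.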
